A study of Mus musculus with 8 samples.

Results

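Untreated mouse embryonic fibroblasts labelled Arid5a-/- (knockout, KO) were compared with untreated wild-type (WT) fibroblasts. Mouse embryonic fibroblasts are connective-tissue cells grown out of dissociated embryos. The comparison takes every library that received no interleukin 6 (IL-6), 2 of each genotype and 4 of the 8 in the series, collected after 24 h. The other 4 libraries hold the same genotypes kept for 24 h with 100 ng/ml IL-6, and they share no library with the comparison. No group carries another allele or agent in the labels. The labels do not give the strain, sex, age or body region of the embryos, the number of embryos or clones behind a genotype, or the part of Arid5a that was removed. Whether both libraries of a genotype come from independent cultures is not stated either. The p-values therefore reflect library-to-library spread alone, and that spread may be technical.

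The Arid5a protein binds RNA and protects some inflammatory mRNAs, such as that of Il6, from decay. Fibroblasts keep transcription factor programs of the place in the embryo they came from. Hox genes, which sit in clusters, are used in nested domains along the trunk and limbs, the higher numbered ones more posteriorly and more distally. Limb mesenchyme uses factors such as Pitx1, Tbx4, Tbx5 and Shox2. Mesothelium, the thin cell layer that lines the body cavities and covers the inner organs, uses Wt1, Gata4, Gata6 and Tcf21, and carries keratins and surface proteins such as uroplakins and mesothelin.

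The deposited values were FPKM, fragments scaled to transcript length and library depth, of 142869 transcripts. They were summed to 55358 genes, of which 13693 reached 1 FPKM in at least 2 of the 8 libraries and were tested. Levels are given as FPKM in each library, and differences as log2 (KO minus WT, on FPKM + 1) ± SE, a scale that understates the difference of low genes. A gene was called at an adjusted p below 0.05 in limma's moderated test with Benjamini-Hochberg adjustment, which is the source of every adjusted p below. Depths fitted to the low values were 36.8 to 46.2 M fragments per library, 12570 to 12699 genes reached 1 FPKM, and the 2 libraries of a group correlated at 0.9927 to 0.9935 across genes. A WT and a KO library without IL-6 correlated at 0.8478 to 0.8486. Arid5a (chromosome 1, 36307733 to 36324029, plus strand, GRCm38) stood at 18.73 and 15.89 FPKM in WT and at 5.51 and 6.853 in KO, so transcript remained in the libraries labelled KO (-1.35 ± 0.1, adjusted p = 1.32e-05). Ddx3y, on the Y chromosome, was at 34.58 and 36.64 FPKM in WT and listed at 0 in both KO libraries. Xist, the RNA that coats the inactive X chromosome of female cells, was at 58.66 and 55.21 FPKM in KO and under 0.01 in WT. Genotype and this difference in sex markers cannot be told apart in these libraries.

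Most genes differed between the 2 cultures. Of 13693 genes, 9716 were called, which is 71.0% of those tested (36.4% higher in KO and 34.5% lower). At least 2-fold differences were called for 1296 genes higher in KO (9.46%) and 1173 lower (8.57%). The genes at least 2-fold higher held 2.3% of total FPKM in each WT library and 10.4% in each KO library. Those at least 2-fold lower held 12.3% in each WT library and 3.5 and 3.6% in KO. Both sets were chosen by their difference in these same libraries, so the direction of these shares was fixed by the choice. Both KO libraries lay above both WT libraries for 43.3% of genes and below them for 41.7%, so groups that do not overlap are the rule here and the share of a list is read against these figures. A gene that passed the filter on low values only through the culture where it is high had to differ, so the counts below describe the lists and support no statement about them. For every gene named below as higher or lower, both KO libraries lay on the same side of both WT libraries. With IL-6, 71.7% of genes were called, 10.3% at least 2-fold higher and 8.84% at least 2-fold lower. There, 98.8% of the genes at least 2-fold higher and 98.2% of those at least 2-fold lower were called in the same direction. The genes at least 2-fold higher in both conditions made up 90.7% of that list without IL-6 and 83.6% of that with it, and the genes at least 2-fold lower in both made up 85.2 and 82.6%. In bulk RNA, fewer cells of a type and less RNA per cell cannot be told apart.

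**Figure D1:**
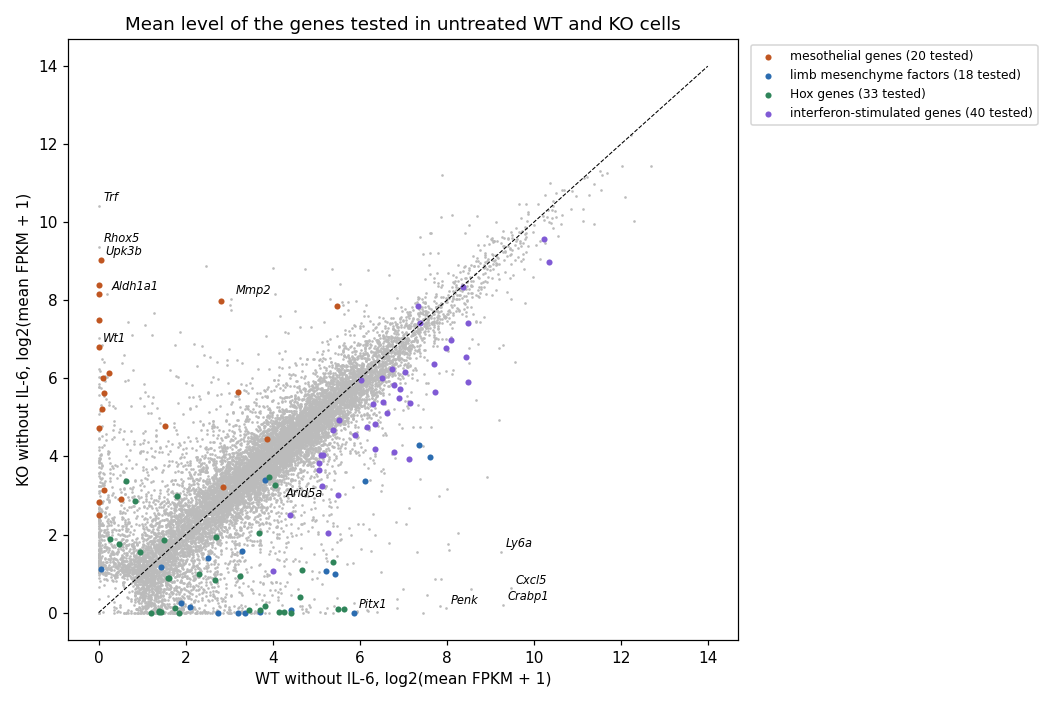
Mean level of each gene tested in WT (x axis) and KO cells (y axis) without IL-6, both as log2(mean FPKM + 1), 1 point per gene, with 4 groups of genes coloured and the dashed line marking equal levels. Mesothelial genes lie above the line, and most limb factors, Hox genes and interferon-stimulated genes lie below it.

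Mesothelial transcription factors were higher in KO. All 6 were called higher in KO, 5 of them at least 2-fold, with a median of 5.32 against 0.0069 over all genes tested. Wt1, Tcf21 and Gata6 passed the filter on low values only through the KO libraries, so they had to differ. The count describes the list, which was chosen with earlier results of these data known. Wt1, the zinc-finger factor of mesothelium, kidney and gonad, was listed at 0 in both WT libraries and stood at 113.4 and 109.1 FPKM in KO (6.81 ± 0.057, adjusted p = 2.18e-10). Tcf21, a factor of visceral mesenchyme, was likewise listed at 0 in WT and stood at 26.21 and 24.98 FPKM in KO (4.73 ± 0.081, adjusted p = 4.65e-09). Gata6, an endoderm and cardiac mesoderm factor, was at 0.0887 and 0.0453 FPKM in WT and 63.97 and 63.44 in KO (5.92 ± 0.056, adjusted p = 4.27e-10). Its relative Gata4 was at 2.028 and 1.748 in WT and 26.66 and 26.19 in KO (3.25 ± 0.086, adjusted p = 4.22e-08). Bnc1, which encodes the zinc-finger protein basonuclin, was at 0.17 and 0.2 FPKM in WT and 69.48 and 69.94 in KO (5.90 ± 0.078, adjusted p = 1.57e-09). Tbx18, a factor of the epicardium and of other embryonic mesoderm, was present in both cultures, at 13.63 and 13.78 FPKM in WT and 20.76 and 20.86 in KO (0.57 ± 0.048, adjusted p = 2.32e-05). For all 6 factors the KO libraries lay above the WT libraries.

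Genes of proteins that mark the mesothelial surface were higher in KO as well. Of 15 genes, 14 were tested and all 14 were called higher in KO, 13 at least 2-fold, with a median of 4.08. Upk3b, an uroplakin, was at 0.0368 and 0.0344 FPKM in WT and 518.4 and 534.7 in KO (8.99 ± 0.042, adjusted p = 2.74e-11), and its partner Upk1b was listed at 0 in WT and at 338 and 326.7 in KO (8.38 ± 0.045, adjusted p = 3.13e-11). Lrrn4, a leucine-rich repeat protein of mesothelial cells, was listed at 0 in WT and stood at 181.1 and 179.8 FPKM in KO, and the membrane glycoprotein gene Gpm6a was at or under 0.009 in WT and at 282.3 and 285.9 in KO. Mesothelin, from Msln, was already present in WT at 46.72 and 41.09 FPKM and was at 224.4 and 239.5 in KO (2.38 ± 0.064, adjusted p = 4.65e-08). The keratin gene Krt19 was at 5.949 and 6.114 FPKM in WT and 245.8 and 259.3 in KO, a ratio of means of 41.9 (5.17 ± 0.091, adjusted p = 5.47e-09). Krt7 was at 0.0364 and 0.0585 in WT and 35.12 and 37.01 in KO (5.14 ± 0.064, adjusted p = 1.2e-09). Krt8 and Krt18, the keratin pair of simple epithelia, differed by 3.02 and 2.40. The mucin gene Muc16 was listed at 0 in WT and stood at 4.938 and 4.417 FPKM in KO, and Podxl, which encodes an anti-adhesive sialomucin, was at 0.109 and 0.0798 in WT and 48.94 and 47.64 in KO (5.49 ± 0.056, adjusted p = 4.8e-10). Rspo1, a Wnt co-activator of the embryonic mesothelium and gonad, was at 8.588 and 7.881 FPKM in WT and 50.77 and 47.85 in KO (2.45 ± 0.071, adjusted p = 6.56e-08). Slpi, a secreted protease inhibitor, had the smallest difference of the 14 (0.36 ± 0.077, adjusted p = 0.00388). In the treated libraries Slpi was lower in KO, at 26.37 and 23.29 FPKM in WT and 8.073 and 7.737 in KO. Calb2, which encodes the mesothelial marker calretinin, was at or under 0.06 FPKM in all 4 libraries and was not tested.

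**Figure D2:**
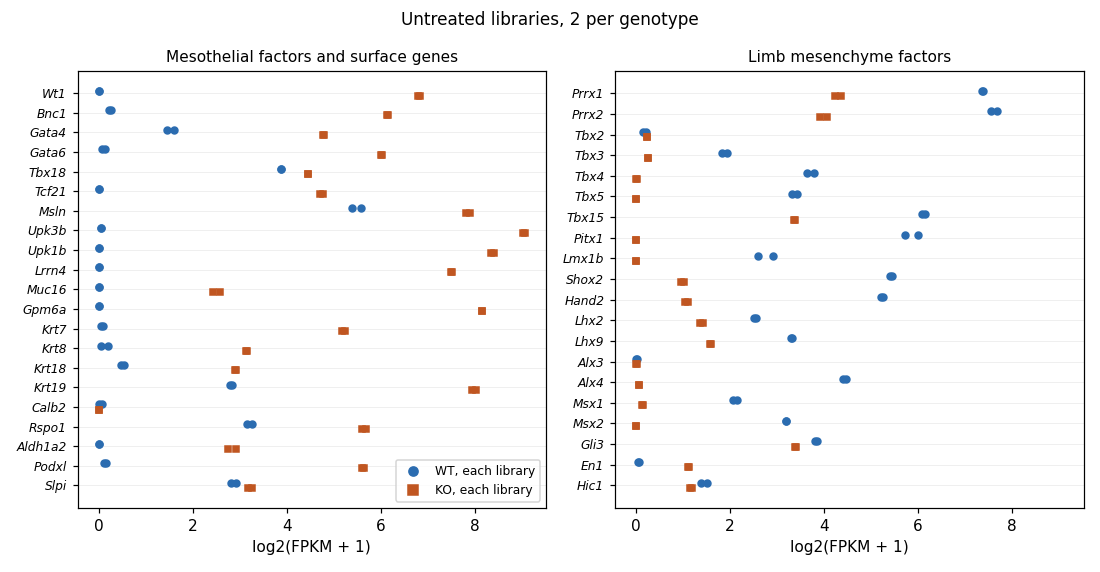
Level of each mesothelial gene (left) and limb mesenchyme factor (right) in each untreated library, on the x axis as log2(FPKM + 1); circles are the 2 WT libraries and squares the 2 KO libraries. Of the genes tested, all 20 mesothelial genes were higher in KO, and 17 of 18 limb factors were lower.

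Limb mesenchyme factors showed the opposite picture. Of 18 tested, 17 were called lower in KO, 15 at least 2-fold, and 1 higher, with a median of -2.91. Pitx1, the selector of hindlimb identity, was at 62.87 and 51.34 FPKM in WT and listed at 0 in both KO libraries (-5.85 ± 0.096, adjusted p = 3.99e-09). Tbx4, its hindlimb partner, was at 12.85 and 11.45 FPKM in WT and under 0.01 in KO, and the forelimb factor Tbx5 was at 9.721 and 8.915 in WT and listed at 0 in KO (-3.37 ± 0.081, adjusted p = 2.54e-08). Transcripts of both a forelimb and a hindlimb factor were thus present in WT. Shox2, needed for the proximal limb skeleton, was at 42.28 and 41.43 FPKM in WT and 1.02 and 0.931 in KO (-4.44 ± 0.054, adjusted p = 1e-09). Hand2, which patterns the posterior limb bud, was at 37.3 and 36.06 in WT and 1.047 and 1.139 in KO (-4.17 ± 0.082, adjusted p = 9.83e-09). Alx4, of the anterior limb bud, was at 21.05 and 20.06 in WT and 0.0477 and 0.0383 in KO (-4.37 ± 0.067, adjusted p = 2.99e-09). Lmx1b, which specifies dorsal limb identity, and Msx2 were at 6.477 and 4.985 FPKM (Lmx1b) and 8.134 and 8.133 FPKM (Msx2) in WT, and both were listed at 0 in KO. Prrx1 and Prrx2, homeobox genes of limb and skeletal mesenchyme, were lower but still expressed in KO: Prrx1 was at 161.9 and 165.6 FPKM in WT and 17.7 and 19.54 in KO (-3.07 ± 0.055, adjusted p = 5.79e-09). Prrx2 was at 204.6 and 185.7 in WT and 13.97 and 15.79 in KO (-3.63 ± 0.079, adjusted p = 1.57e-08). Gli3, a mediator of hedgehog signals, and Hic1 were the members lower by the least (-0.43 ± 0.058, adjusted p = 0.000312 for Gli3, and -0.27 ± 0.1, adjusted p = 0.0447 for Hic1). The call of Hic1 was lost in 9 of 14 alternatives, for example without WT library 1 (adjusted p = 0.179). En1, a factor of ventral limb ectoderm and of the dermomyotome, was the member higher in KO, at 0.0302 and 0.0377 FPKM in WT and 1.176 and 1.143 in KO (1.06 ± 0.093, adjusted p = 2.82e-05).

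Hox genes differed by position within clusters A and B, and most of those in clusters C and D were lower in KO. In cluster A, 3 of 10 genes tested were called higher in KO, the low-numbered Hoxa3 and Hoxa4 among them, and all 7 tested from Hoxa5 to Hoxa13 were called lower. Cluster A lies on chromosome 6, where the median gene was higher in KO by 0.68. The part of the chromosome in these differences was not tested. Hoxa4 was at 0.296 and 0.456 FPKM in WT and 2.56 and 2.231 in KO (1.30 ± 0.11, adjusted p = 1.99e-05). Hoxa10 was at 24.82 and 22.75 FPKM in WT and 0.263 and 0.38 in KO (-4.23 ± 0.078, adjusted p = 6.61e-09). Hoxa11 was at 20.5 and 20.1 in WT and below 0.001 in both KO libraries (-4.41 ± 0.063, adjusted p = 2.19e-09). Cluster B had the same form: Hoxb2, Hoxb3 and Hoxb4 were called higher in KO and Hoxb5 to Hoxb9 lower, though the call of Hoxb4 was lost without WT library 2 (adjusted p = 0.0757), without KO library 2 (0.0773) or without the filter on low values (0.0525). Hoxb2 was at 0.511 and 0.58 FPKM in WT and 8.926 and 9.885 in KO (2.75 ± 0.11, adjusted p = 3.71e-07). Hoxb9 was at 40.48 and 40.73 in WT and 1.441 and 1.471 in KO (-4.08 ± 0.059, adjusted p = 2.19e-09). Of cluster C, 8 of 9 genes were lower, with Hoxc6 at 44.55 and 43.88 FPKM in WT and 0.0766 and 0.052 in KO (-5.41 ± 0.061, adjusted p = 6.96e-10) and Hoxc10 at 48.64 and 49.04 in WT and 0.0621 and 0.0702 in KO (-5.55 ± 0.054, adjusted p = 4.39e-10). Hoxc13, at the far end of that cluster, went the other way, at 0.777 and 0.797 FPKM in WT and 5.911 and 6.61 in KO (2.02 ± 0.091, adjusted p = 7.35e-07). All 6 genes tested in cluster D were lower, Hoxd8 by the smallest amount (-0.45 ± 0.086, adjusted p = 0.00218) and Hoxd10 by the largest (-4.13 ± 0.066, adjusted p = 3.54e-09). The median differences of clusters A, B, C and D were -1.47, -0.75, -3.39 and -1.39.

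**Figure D3:**
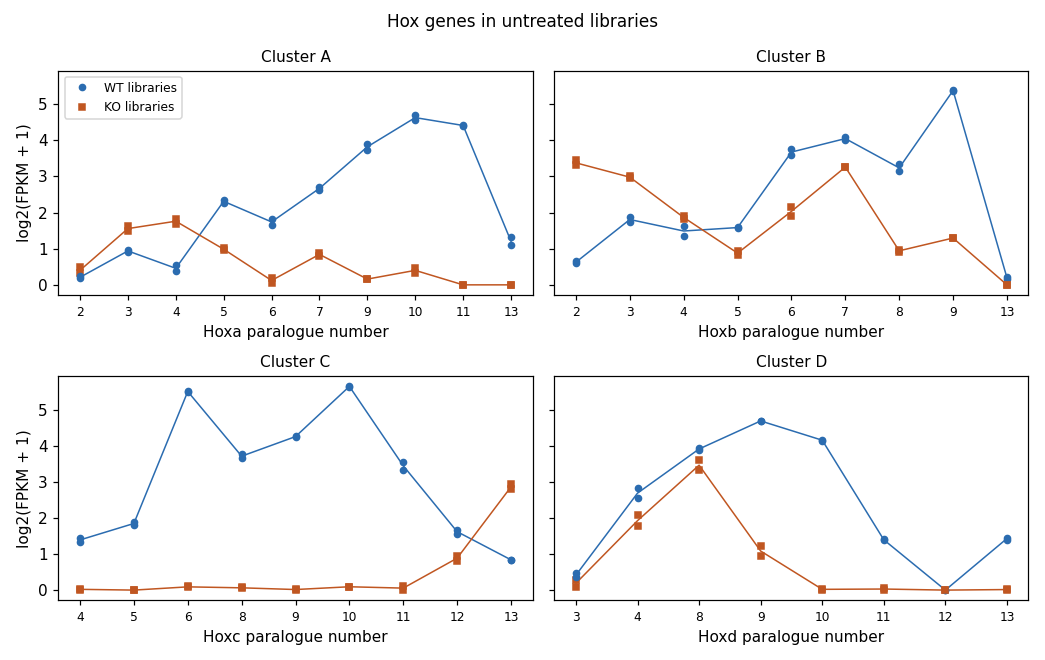
Level of each Hox gene from paralogue 2 on in each untreated library as log2(FPKM + 1) on the y axis, ordered by paralogue number within each of the 4 clusters; circles are WT libraries, squares KO libraries, and lines join the group means. In clusters A and B, KO lies at or above WT up to paralogue 4 and below it from paralogue 5 on, while in cluster C KO lies above WT at Hoxc13 alone.

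Of 10 tested lncRNAs of these and other patterning loci, 5 were called higher in KO and 4 lower, with a median of 0.06. Hotair, a lncRNA of cluster C, was at 1.376 and 1.147 FPKM in WT and 0.0147 and 0 in KO (-1.17 ± 0.1, adjusted p = 3.21e-05). Hoxa11os, which lies opposite Hoxa11, was at 25.5 and 26.61 in WT and 0.0393 and 0.0146 in KO (-4.72 ± 0.063, adjusted p = 1.7e-09). Hand2os1, opposite Hand2, was at 15.05 and 17.63 in WT and 0.321 and 0.186 in KO (-3.79 ± 0.2, adjusted p = 1.46e-06). Halr1, of the Hoxa locus, was listed at 0 in WT and stood at 4.809 and 5.249 FPKM in KO, and Hotairm1, of the same locus, was at 2.493 and 3.049 in WT and 7.382 and 9.954 in KO (1.35 ± 0.19, adjusted p = 0.000408). The Hoxa locus lies on chromosome 6, as given above. Wt1os, opposite Wt1, was listed at 0 in WT and at 2.91 and 2.807 FPKM in KO, and 1010001N08Rik, known as Gata6os, was at 0.063 and 0 in WT and 17.67 and 13.76 in KO (4.01 ± 0.12, adjusted p = 8.29e-08). The counting is not stated to use strand, so reads of these genes and of their antisense partners cannot be told apart. By the rule for naming lncRNAs, the largest rises beside Xist and 1010001N08Rik were Gm20186 (4.58 ± 0.16, adjusted p = 2.03e-07) and 3110039M20Rik (4.02 ± 0.082, adjusted p = 1.15e-08), and the largest falls beside the antisense RNAs were Gm48898 (-5.06 ± 0.069, adjusted p = 1.8e-09) and Gm53 (-4.67 ± 0.074, adjusted p = 3.24e-09).

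Other regional factors differed in both directions between the cultures. Osr2, an odd-skipped factor of limb joints, palate and kidney mesenchyme, was at 58.42 and 54.18 FPKM in WT and 0 and 0.0212 in KO (-5.82 ± 0.061, adjusted p = 4.95e-10). Its paralogue Osr1 was at 40.58 and 36.32 in WT and 4.594 and 4.624 in KO (-2.81 ± 0.071, adjusted p = 3.14e-08). Foxd1, a stromal forkhead factor, was at 11.16 and 10.99 FPKM in WT and 0.0165 and 0.0249 in KO (-3.56 ± 0.068, adjusted p = 8.01e-09). Higher in KO were Tbx20, a cardiac factor (0.0193 and 0.0129 FPKM in WT and 7.977 and 7.312 in KO, 3.09 ± 0.089, adjusted p = 6.6e-08) and Pax3, of dorsal somites and neural crest (0.0467 and 0.0125 in WT and 15.44 and 15.62 in KO, 4.005 ± 0.066, adjusted p = 3.97e-09). Emx2, of the urogenital system and forebrain, did not pass (24.04 and 22.92 in WT, 26.74 and 22.53 in KO, adjusted p = 0.497), though it was called higher without KO library 2 (0.18, adjusted p = 0.0402), and neither did the gut mesenchyme factor Foxf1 (adjusted p = 0.504). Of the visceral and intermediate mesoderm factors, 2 of 8 tested were higher and 4 lower; of the somite factors, 1 of 5 and 4 of 5; of the head and neural crest factors, 3 of 6 and 1 of 6 (2 lower without WT library 2). Most members of these lists did not reach the level for testing, 11 of 19 visceral, 8 of 13 somite and 11 of 17 head and neural crest factors.

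Factors that hold cells in a mesenchymal state were lower in KO and several junction genes higher. All 8 tested factors of epithelial-mesenchymal transition were called lower, 5 at least 2-fold, with a median of -1.54. Twist2 was at 47.39 and 43.46 FPKM in WT and 2.936 and 2.302 in KO (-3.69 ± 0.094, adjusted p = 3.44e-08). Tcf4 was at 90.24 and 88.71 in WT and 11.94 and 10.81 in KO (-2.87 ± 0.1, adjusted p = 2e-07). Snai2 was at 26.76 and 26.37 in WT and 7.613 and 7.252 in KO (-1.71 ± 0.057, adjusted p = 1.34e-07). Zeb1 and Zeb2, repressors of epithelial genes, differed by -0.90 and -0.53 and were still at 15.66 and 12.79 FPKM (Zeb1) and 11.36 and 9.043 FPKM (Zeb2) in KO. Of 17 tested keratin, desmosome and tight junction genes, 11 were called higher in KO and 4 lower, with a median of 1.02. Cldn15, a claudin, was at 0.177 and 0.107 FPKM in WT and 63.8 and 65.14 in KO (5.84 ± 0.075, adjusted p = 1.4e-09). Ezr, which links membrane and actin in microvilli, was at 43.36 and 36.82 in WT and 444.7 and 442.4 in KO, a ratio of means of 11.1 (3.44 ± 0.089, adjusted p = 3.6e-08). F11r, a junctional adhesion molecule, was at 34.94 and 35.23 in WT and 171.2 and 176.1 in KO (2.27 ± 0.039, adjusted p = 4.98e-09). Dsp, of desmosomes, was at 0.995 and 0.982 in WT and 9.339 and 8.744 in KO (2.34 ± 0.074, adjusted p = 1.08e-07). The exceptions were Cldn1 (-1.54 ± 0.084, adjusted p = 2.01e-06), Perp (-2.98 ± 0.063, adjusted p = 1.4e-08), Pkp3 (-0.38) and Krt80 (-0.32). The call of Pkp3 was lost without WT library 2 or KO library 2 (adjusted p = 0.0688 and 0.0644). Cadherins differed in both directions, 7 of 12 higher and 5 lower. Cdh13 was at 60.67 and 59.83 FPKM in WT and under 0.02 in KO (-5.93 ± 0.057, adjusted p = 4.39e-10). Cdh3 was at 6.018 and 5.18 in WT and 82.54 and 85.33 in KO (3.69 ± 0.066, adjusted p = 5.83e-09). Cdh2 was at 24.55 and 24.4 in WT and 81.01 and 83.28 in KO (1.71 ± 0.038, adjusted p = 1.84e-08). E-cadherin, from Cdh1, was low in both, at 0.401 and 0.527 FPKM in WT and 6.02 and 6.15 in KO (2.28 ± 0.081, adjusted p = 1.96e-07), and Epcam, a marker of most epithelia, was under 0.7 FPKM in all 4 libraries. Krt14, of basal epithelium, was listed at 0 in WT and at 64.24 and 65.97 FPKM in KO (6.05 ± 0.053, adjusted p = 2.9e-10), while its usual partner Krt5 was listed at 0 in all 4.

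Both cultures expressed fibroblast genes, and most of these were lower in KO. Of 16 fibroblast surface and stromal markers tested, 12 were called lower and 4 higher, with a median of -1.5. Vim, the mesenchymal intermediate filament, was at 2288 and 2183 FPKM in WT and 1022 and 1088 in KO (-1.08 ± 0.045, adjusted p = 4.48e-07). The growth factor receptors Pdgfra and Pdgfrb were at 33.15 and 38.38 FPKM (Pdgfra) and 50.28 and 48.72 FPKM (Pdgfrb) in WT and at 8.611 and 7.616 (Pdgfra) and 6.972 and 7.404 (Pdgfrb) in KO (-2.01 ± 0.083, adjusted p = 4.52e-07 for Pdgfra, and -2.62 ± 0.046, adjusted p = 5.23e-09 for Pdgfrb). Ly6a, the stem and progenitor marker Sca-1, was at 601.8 and 619.4 in WT and 1.256 and 2.65 in KO (-7.74 ± 0.23, adjusted p = 7.71e-08), and the proteoglycan NG2, from Cspg4, at 23.83 and 24.88 in WT and 0.0877 and 0.0367 in KO (-4.58 ± 0.067, adjusted p = 2.47e-09). Cd34 was at 228.7 and 223.6 in WT and 66.96 and 72.23 in KO (-1.69 ± 0.054, adjusted p = 1.09e-07). The 4 genes higher in KO were Dcn, at 156.8 and 174.8 FPKM in WT and 782.7 and 804.5 in KO (2.25 ± 0.081, adjusted p = 2.05e-07), Pdpn (0.56 ± 0.037, adjusted p = 6.06e-06), which is also found in mesothelium, Dpp4 (1.19) and Nt5e (0.27). The call of Nt5e was lost without WT library 1 or KO library 2 (adjusted p = 0.118 and 0.135), after quantile normalization (0.0574) and without the filter on low values (0.0536). The summed level of the 20 markers was 8432 to 8650 FPKM in WT and 3144 to 3153 in KO, most of it from S100a4 and Vim, against 62.34 to 67.95 and 1959 to 1992 for the 15 mesothelial surface genes.

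Markers of liver, blood, skeletal muscle and endothelial cells were mostly under 1 FPKM in both cultures, while lists of other types held genes at high levels. All 6 hepatocyte and 7 erythroid genes were under 1 FPKM in all 4 libraries, as were 8 of 10 leukocyte, 10 of 11 skeletal muscle and 6 of 10 endothelial genes. Ptprc, the common leukocyte antigen, was at or under 0.006 FPKM, and Pecam1 and Cdh5, of endothelium, at or under 0.11. The leukocyte list's summed level was 19.13 to 19.37 FPKM in WT and 4.13 to 4.372 in KO, from Cd14 and Cd68, and the endothelial list's was 16.7 to 17.44 and 24.11 to 24.84, with Tek higher in KO (3.17 ± 0.076, adjusted p = 2.57e-08). Stmn2, a neuronal microtubule regulator, was at 82.63 and 85.09 FPKM in WT and under 0.02 in KO (-6.40 ± 0.049, adjusted p = 1.72e-10), yet 7 of the 10 neuronal and glial genes were under 1 FPKM in all 4 libraries. The smooth muscle and pericyte list summed to 120.8 to 122.6 FPKM in WT and 602.4 to 628.2 in KO, with 3 of 4 tested members higher, while its defining members Myh11 and Myocd were at or under 0.11 FPKM in all 4 libraries. The adipocyte list summed to 7.142 to 8.115 in WT and 102.9 to 103.6 in KO. The keratinocyte and epithelial list summed to 4.711 to 4.827 and 78.69 to 81.89, and the bone list to 762.1 to 788.8 and 89.83 to 91.01. The neuronal and glial list summed to 109.1 to 110 and 19.98 to 20.16. Lpl and Pparg, of adipocytes, were higher in KO (6.03 ± 0.048, adjusted p = 1.93e-10 for Lpl, and 2.63 ± 0.12, adjusted p = 9.64e-07 for Pparg), Fabp4 was lower, and Adipoq and Plin1 were at or under 0.16 FPKM. Postn, of periosteum and other fibrous tissue, was at 471.7 and 493.5 FPKM in WT and 10.44 and 9.862 in KO (-5.44 ± 0.08, adjusted p = 2.47e-09), while the bone genes Ibsp and Dmp1 were listed at 0 in all 4.

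Matrix genes differed in both directions, as did all genes tested (36.4% higher in KO and 34.5% lower). Of 17 basement membrane genes tested, 10 were called higher in KO and 4 lower, 7 and 3 at least 2-fold, with a median of 0.55. Lama5, the laminin chain of mature epithelial basement membranes, was at 0.597 and 0.606 FPKM in WT and 60.39 and 62.51 in KO (5.29 ± 0.069, adjusted p = 1.49e-09). Lama4, a mesenchymal and vascular chain, was at 48.51 and 54.57 in WT and 1.297 and 1.474 in KO (-4.46 ± 0.071, adjusted p = 3.33e-09). Nid2 was at 7.66 and 6.743 in WT and 217.5 and 210.3 in KO (4.71 ± 0.059, adjusted p = 1.25e-09). Its paralogue Nid1 was at 141.7 and 155.8 in WT and 73.48 and 72.37 in KO (-1.02 ± 0.05, adjusted p = 1.22e-06). Col4a6 and Col4a5, collagen chains that assemble together, were at 48.99 and 49.6 FPKM (Col4a6) and 89.51 and 88.84 FPKM (Col4a5) in KO (4.58 ± 0.063, adjusted p = 1.83e-09 for Col4a6, and 2.29 ± 0.047, adjusted p = 1.21e-08 for Col4a5). Of 37 matrix glycoproteins and proteoglycans, 23 were lower, 18 at least 2-fold, and 13 higher. Aspn, a small leucine-rich proteoglycan, was at 227.3 and 228.1 FPKM in WT and 0.139 and 0.114 in KO (-7.67 ± 0.047, adjusted p = 6.22e-11). The tendon and limb proteoglycans Omd and Ogn were at 86.11 and 90.15 (Omd) and 200 and 199 (Ogn) in WT and 0.899 and 1.232 (Omd) and 24.84 and 27.01 (Ogn) in KO. Ccn5, a secreted matricellular protein gene, was at 380.9 and 375.9 in WT and 0.356 and 0.658 in KO (-7.98 ± 0.095, adjusted p = 9.5e-10). Fn1, fibronectin, was higher in KO, at 209.2 and 254.3 FPKM in WT and 1145 and 1103 in KO (2.28 ± 0.095, adjusted p = 4.52e-07), as were Fbln2 (2.58 ± 0.035, adjusted p = 1.83e-09) and Fmod (4.15 ± 0.066, adjusted p = 3.24e-09). Of 20 collagens of other kinds, 12 were higher and 7 lower: Col3a1 was at 197 and 199.6 in WT and 845.6 and 845.4 in KO (2.09 ± 0.067, adjusted p = 1.16e-07), and Col1a2 did not pass (adjusted p = 0.811). Mmp2, gelatinase A, was at 7.352 and 7.209 FPKM in WT and 265.1 and 257.5 in KO (4.99 ± 0.051, adjusted p = 4.92e-10). Of 15 contractile and actin genes, 11 were higher and 3 lower, with a median of 0.42, and the cardiac troponin gene Tnnt2 was at 0.0836 and 0.251 in WT and 17.29 and 14.06 in KO (3.83 ± 0.12, adjusted p = 8.15e-08). Acta2, smooth-muscle actin, and Tagln belong to the smooth muscle and pericyte list and hold most of its summed level given above. Acta2 was at 46.14 and 44.59 in WT and 332 and 350.7 in KO (2.88 ± 0.052, adjusted p = 5.93e-09). Tagln was at 58.31 and 59.73 in WT and 247.8 and 255.6 in KO (2.07 ± 0.062, adjusted p = 7.68e-08). The part of such cells in the contractile differences was not tested.

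Genes of most signalling families differed in both directions, as did genes in general (36.4% of all genes tested were higher in KO and 34.5% lower). Of 34 Wnt pathway genes, 13 were higher in KO (38.2%) and 16 lower (47.1%), with a median of -0.11. Wnt10b was at 59.65 and 53.86 FPKM in WT and 1.413 and 1.374 in KO (-4.59 ± 0.065, adjusted p = 2.18e-09). Wnt4, of kidney and gonad, was at 0.117 and 0.103 in WT and 9.178 and 9.634 in KO (3.23 ± 0.077, adjusted p = 2.42e-08). Wnt5a was at 4.428 and 4.836 in WT and 24.38 and 24.68 in KO (2.18 ± 0.064, adjusted p = 6.74e-08). The antagonist gene Dkk3 was at 44.35 and 42.45 in WT and 0.355 and 0.244 in KO (-5.09 ± 0.068, adjusted p = 1.64e-09). Axin2, a common target of the pathway, was at 6.301 and 5.777 in WT and 0.995 and 0.966 in KO (-1.83 ± 0.092, adjusted p = 1.29e-06). Among 39 TGF-beta and BMP genes, 17 were higher and 17 lower (43.6% each way). The joint and tendon ligand genes Gdf5 and Gdf7 were at 9.772 and 8.345 FPKM (Gdf5) and 17.89 and 17.24 FPKM (Gdf7) in WT and at or under 0.04 in KO. The antagonist Grem1 of the limb bud was at 90.05 and 93.72 in WT and 12.03 and 11.69 in KO (-2.85 ± 0.058, adjusted p = 1.16e-08). Bmp2 was at 0.46 and 0.491 in WT and 21.45 and 20.29 in KO (3.89 ± 0.069, adjusted p = 5.58e-09). Fgf7, a mesenchymal signal to epithelium, was at 71.51 and 72.3 FPKM in WT and 0.0382 and 0.00974 in KO (-6.15 ± 0.052, adjusted p = 2.4e-10). Fgf10, of the limb bud and lung, was at 5.679 and 5.365 in WT and listed at 0 in KO (-2.71 ± 0.077, adjusted p = 6.08e-08). Fgfr1 was at 98.02 and 93.45 in WT and 24.82 and 19.74 in KO (-2.06 ± 0.1, adjusted p = 1.25e-06), and 11 of 16 FGF genes tested were higher in KO, among them Dusp6, a feedback phosphatase (2.29 ± 0.081, adjusted p = 1.98e-07). Met, the hepatocyte growth factor receptor of epithelia, was at 8.363 and 9.185 FPKM in WT and 84.18 and 80.75 in KO (3.10 ± 0.051, adjusted p = 4.08e-09). Its ligand gene Hgf was at 1.463 and 1.957 in WT and 0.0593 and 0.0295 in KO (-1.37 ± 0.11, adjusted p = 1.82e-05). Of 13 IGF genes, 8 were higher and 5 lower, with Igfbp4 at 14.74 and 15.37 in WT and 438.9 and 461.9 in KO (4.81 ± 0.06, adjusted p = 1.2e-09) and Igf2 at 0.0704 and 0.0692 in WT and 10.01 and 11.87 in KO (3.48 ± 0.092, adjusted p = 4.14e-08).

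Genes for retinoic acid, a vitamin A derivative that patterns trunk and limb, differed in both directions. The binding proteins Crabp1 and Crabp2 were at 631.7 and 615.1 FPKM (Crabp1) and 305.4 and 308 FPKM (Crabp2) in WT, and at 0.215 and 0.0779 (Crabp1) and 3.389 and 2.775 (Crabp2) in KO (-9.09 ± 0.084, adjusted p = 3.86e-10 for Crabp1, and -6.24 ± 0.069, adjusted p = 6.15e-10 for Crabp2). The synthesizing enzyme gene Aldh1a1 was at 0.186 and 0.111 FPKM in WT and 283.3 and 284.8 in KO (7.96 ± 0.049, adjusted p = 6.22e-11), and Aldh1a2, the embryonic enzyme of mesothelium and epicardium, was listed at 0 in WT and at 6.559 and 5.732 in KO (2.83 ± 0.087, adjusted p = 8.91e-08). The reductase gene Dhrs3 was also higher (3.24 ± 0.057, adjusted p = 5.47e-09), and the receptors Rarb and Rarg lower (-1.997 ± 0.096, adjusted p = 1.04e-06 for Rarb, and -1.57 ± 0.046, adjusted p = 7.55e-08 for Rarg). Of 14 genes tested, 6 were higher and 6 lower (42.9% each way, against 36.4% and 34.5% of all genes tested). Of 8 prostaglandin genes, 3 were higher and 5 lower: Ptgis, prostacyclin synthase, was at 0.692 and 0.48 FPKM in WT and 171.2 and 177.7 in KO (6.79 ± 0.071, adjusted p = 4.95e-10). Ptges, the synthase of prostaglandin E2, was at 17.37 and 15.51 in WT and 0.455 and 0.176 in KO (-3.73 ± 0.11, adjusted p = 6.74e-08).

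Interferon-stimulated genes were lower in KO almost throughout. Of 40 genes, all tested, 36 were called lower, 28 at least 2-fold, and 1 higher, with a median of -1.28. Oasl1, an antiviral protein, was at 39.22 and 36.33 FPKM in WT and 3.194 and 3.034 in KO (-3.24 ± 0.095, adjusted p = 7.12e-08). The guanylate-binding protein gene Gbp7 was at 80.95 and 80.42 in WT and 17.48 and 16.92 in KO (-2.17 ± 0.097, adjusted p = 6.77e-07). Ifit1, which binds foreign RNA, was at 339.3 and 349.8 in WT and 98.45 and 88.17 in KO (-1.88 ± 0.11, adjusted p = 2.68e-06). Mx2 was at 34.26 and 33.68 in WT and 9.172 and 7.881 in KO (-1.88 ± 0.12, adjusted p = 4.18e-06). Isg15, a ubiquitin-like protein, was at 1334 and 1269 in WT and 507.1 and 511.6 in KO (-1.35 ± 0.087, adjusted p = 5.34e-06). Ifi27 was the member higher in KO (0.52 ± 0.043, adjusted p = 2.17e-05), and Isg20, Lgals3bp and Irgm1 did not pass (adjusted p = 0.162, 0.764 and 0.7). Ifit3 (-2.59) and its near-identical neighbour Ifit3b (-2.69) are close copies that may exchange fragments, which makes either value uncertain. Stat2, a subunit of the factor that drives these genes, was at 195.3 and 171.8 FPKM in WT and 58.77 and 58.02 in KO (-1.63 ± 0.094, adjusted p = 2.81e-06). Of 14 genes of MHC class I antigen presentation tested, 12 were lower and none higher: the immunoproteasome subunit gene Psmb8 was at 134.7 and 137.7 in WT and 40.19 and 43.85 in KO (-1.67 ± 0.11, adjusted p = 5.07e-06). The peptide transporter gene Tap1 was at 82.96 and 80.64 in WT and 32.35 and 32.75 in KO (-1.30 ± 0.12, adjusted p = 3.91e-05). B2m, the common light chain, was at 2929 and 3104 in WT and 2327 and 2398 in KO (-0.35 ± 0.098, adjusted p = 0.0131). The difference of B2m turned to 0.09 after quantile normalization (adjusted p = 0.484) and its call was lost without WT library 2 or KO library 1 (adjusted p = 0.0745 and 0.0628). The H2 heavy-chain genes are close copies and their single values are uncertain.

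The promoters of interferon-stimulated genes are shown because these genes moved together. The 250 bases before the RefSeq start (GRCm38.p6, 1 promoter per gene) were searched on both strands for the interferon-stimulated response element, as a pair of TTTC blocks with any 2 bases between them. This search was chosen after the values were seen. Of 29 promoters found for the list, 14 held it (48.3%): 13 of 26 for genes called lower and 1 of 3 for genes not called. The list's share is set against 3.04% of all 27025 promoters and 2.67% of 9872 promoters of genes tested. The promoter of Irgm1, which did not pass the test, held it too. A match is a description of the letters, not a site shown to be used, and closely spaced matches can overlap. The element is in capitals below, on the strand of the gene, 5′ to 3′.
Gbp7 (chr3:142530258-142530317, plus strand): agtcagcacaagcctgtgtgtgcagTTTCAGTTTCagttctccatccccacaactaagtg
Isg15 (chr4:156200862-156200921, minus strand): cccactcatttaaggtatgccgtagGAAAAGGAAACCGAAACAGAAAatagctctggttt
Igtp (chr11:58199497-58199555, plus strand): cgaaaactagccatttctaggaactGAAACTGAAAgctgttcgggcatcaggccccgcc
Rsad2 (chr12:26456538-26456597, minus strand): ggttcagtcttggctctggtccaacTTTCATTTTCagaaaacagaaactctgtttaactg
Ifit1 (chr19:34640760-34640819, plus strand): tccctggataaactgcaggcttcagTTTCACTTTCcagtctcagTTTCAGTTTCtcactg
Gbp7, Rsad2 and Ifit1 carry the TTTC form on the strand of the gene, Isg15 and Igtp its reverse complement, and Ifit1 and Isg15 hold more than 1 match. Of these genes, Gbp7 differed most (-2.17), and Igtp and Rsad2 differed by -1.42 and -1.33.

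Several chemokine genes were far lower in KO. Of 23 cytokine and chemokine genes tested, 14 were called lower, all at least 2-fold, and 6 higher, with a median of -1.54. Cxcl5, a neutrophil attractant, was at 700 and 729.1 FPKM in WT and 0.452 and 0.619 in KO (-8.87 ± 0.068, adjusted p = 1.72e-10). Cxcl1 was at 115.8 and 115.4 in WT and 0.0318 and 0.131 in KO (-6.75 ± 0.07, adjusted p = 4.92e-10). The monocyte attractant Ccl2 was at 752.4 and 770.6 in WT and 88.43 and 81.43 in KO (-3.15 ± 0.053, adjusted p = 4.51e-09). Ccl5 was at 595.7 and 581.5 in WT and 27.13 and 31.8 in KO (-4.28 ± 0.079, adjusted p = 6.97e-09). Il1rn, the IL-1 receptor antagonist, was at 264.1 and 261.2 in WT and 1.409 and 2.624 in KO (-6.48 ± 0.19, adjusted p = 6.73e-08). Higher in KO were Il33, an alarmin of barrier cells, at 3.455 and 3.677 in WT and 114.7 and 118.4 in KO (4.69 ± 0.051, adjusted p = 6.1e-10), Cxcl12, at 178.4 and 172.3 in WT and 581.1 and 581.3 in KO (1.72 ± 0.033, adjusted p = 7.89e-09), and Il18 (2.38 ± 0.12, adjusted p = 1.14e-06). Il6 itself was low in both, at 1.19 and 1.215 FPKM in WT and 1.037 and 1.109 in KO, and did not pass (adjusted p = 0.454). The receptor gene Il6ra was at 9.307 and 9.216 in WT and 1.48 and 1.593 in KO (-2.02 ± 0.068, adjusted p = 1.46e-07). Il6st, which encodes its signalling partner gp130, was at 84.7 and 89.52 in WT and 78.69 and 78.52 in KO (-0.15 ± 0.041, adjusted p = 0.0137). The call of Il6st was lost at equal total FPKM (adjusted p = 0.0849) and without WT library 2, KO library 1 or KO library 2 (0.0765, 0.0524 and 0.056). The summed level of leukocyte markers, given above, was also lower in KO, and its part in the cytokine differences was not tested. Of 4 tested transcripts reported elsewhere as Arid5a targets, Nos2 was at 6.456 and 6.98 FPKM in WT and at or under 0.007 in KO (-2.94 ± 0.096, adjusted p = 1.25e-07), Tnfrsf4 was lower (-0.82 ± 0.12, adjusted p = 0.000433), Stat3 was higher (0.55 ± 0.037, adjusted p = 6.42e-06) and Il6 did not pass. Of 16 complement and acute-phase genes, 6 were higher and 10 lower. Among the latter, the acute-phase genes Lcn2 and Saa3 were at 56.81 and 58.75 (Lcn2) and 142.8 and 133.9 (Saa3) in WT and 0.184 and 0.198 (Lcn2) and 5.907 and 4.832 (Saa3) in KO.

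Targets of the integrated stress response, through which ATF4 raises genes of amino-acid supply, were mostly higher in KO. Of 35 tested, 22 were called higher, 12 at least 2-fold, and 8 lower, with a median of 0.61. Asns, asparagine synthetase, was at 10.83 and 10.07 FPKM in WT and 53.1 and 53.12 in KO (2.24 ± 0.046, adjusted p = 1.15e-08). Pycr1, of proline synthesis, was at 4.843 and 5.29 in WT and 26.31 and 26.38 in KO (2.17 ± 0.061, adjusted p = 5.7e-08). Gpt2, alanine transaminase, was at 6.671 and 7.293 in WT and 26.41 and 28.08 in KO (1.82 ± 0.074, adjusted p = 4.17e-07). Chac1, which degrades glutathione, was at 4.784 and 4.342 in WT and 16.19 and 18.02 in KO (1.70 ± 0.093, adjusted p = 2.05e-06). Fgf21, a secreted factor, was listed at 0 in WT and at 3.266 and 3.709 FPKM in KO (2.16 ± 0.1, adjusted p = 1.01e-06). Atf4 differed by 0.47 ± 0.04, adjusted p = 2.62e-05. Among the members that were lower, Ddit3, which encodes CHOP, was at 83.8 and 82.8 in WT and 47.87 and 49.88 in KO (-0.76 ± 0.066, adjusted p = 2.79e-05). Ddit4 was at 82.49 and 77.42 in WT and 38.96 and 44.36 in KO (-0.93 ± 0.07, adjusted p = 1.3e-05) and Nupr1 at 115.5 and 106.3 in WT and 76.34 and 76.36 in KO (-0.53 ± 0.045, adjusted p = 2.29e-05), and Atf3 did not pass (adjusted p = 0.626). Asns, Gars and Mthfd2 lie on chromosome 6, where the median gene was higher in KO by 0.68; without them 19 of 32 were higher and 8 lower, with a median of 0.53. The part of the chromosome in these differences was not tested.

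The promoters of these targets are shown for the element that ATF4 and C/EBP proteins bind together. Searched as TGATGNAAN on both strands in the same 250 bases, it was found in 8 of 29 promoters of the whole list (27.6%). By call, it was in 6 of 18 promoters of targets called higher (33.3%), 1 of 6 called lower (16.7%) and 1 of 4 not called. It was found in 3.51% of all promoters and in 1.93% of 9872 promoters of genes tested. The capitals mark the element, read on the strand of the gene 5′ to 3′.
Asns (chr6:7693210-7693257, minus strand): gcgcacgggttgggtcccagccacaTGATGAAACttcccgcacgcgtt
Gars (chr6:55037945-55038000, plus strand): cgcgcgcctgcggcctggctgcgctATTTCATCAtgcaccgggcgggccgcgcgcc
Pycr1 (chr11:120643818-120643876, minus strand): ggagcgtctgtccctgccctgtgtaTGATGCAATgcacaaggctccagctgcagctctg
Chac1 (chr2:119351023-119351081, plus strand): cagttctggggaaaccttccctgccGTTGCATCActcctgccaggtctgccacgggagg
Slc7a11 (chr3:50443646-50443704, minus strand): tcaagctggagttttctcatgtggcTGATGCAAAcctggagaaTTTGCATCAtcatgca
Nupr1 (chr7:126625548-126625606, minus strand): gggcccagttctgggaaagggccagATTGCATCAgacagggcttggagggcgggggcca
Slc7a11, the cystine transporter gene, holds the element on both strands and was at 0.591 and 0.445 FPKM in WT and 1.121 and 1.103 in KO (0.48 ± 0.092, adjusted p = 0.0023). Nupr1, a target that was lower in KO, holds the element too. Promoters of several targets, Trib3 (1.77) and Gpt2 (1.82) among them, did not hold these letters in this window.

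Adhesion, guidance and protease genes added further differences, read against 36.4% higher in KO and 34.5% lower over all genes tested. Of 15 integrin genes tested, 6 were higher and 8 lower, and Itgb1, the beta chain most integrins share, did not pass (0.06 ± 0.036, adjusted p = 0.161), though it was called higher after quantile normalization (0.15, adjusted p = 0.0097) and at equal total FPKM (0.11, adjusted p = 0.0329). Itga3, whose product binds laminin, was at 16.93 and 15.65 FPKM in WT and 62.23 and 59.77 in KO (1.84 ± 0.053, adjusted p = 6.23e-08). Itgbl1, an integrin-like secreted protein gene, was at 7.342 and 9.065 in WT and 0.0926 and 0.0913 in KO (-3.07 ± 0.11, adjusted p = 2.05e-07). Of 30 axon guidance genes, 15 were higher and 10 lower. Efnb1, an ephrin ligand, was at 3.011 and 2.615 in WT and 32.11 and 34.06 in KO (3.16 ± 0.076, adjusted p = 2.58e-08). The netrin receptor gene Unc5b was at 12 and 11.18 in WT and 96.95 and 99.21 in KO (2.98 ± 0.054, adjusted p = 6.07e-09), and netrin 1, from Ntn1, at 16.04 and 15.82 in WT and 0.754 and 0.691 in KO (-3.30 ± 0.069, adjusted p = 1.25e-08). Of 24 protease and inhibitor genes, 13 were higher and 10 lower. Beside Mmp2, the aggrecanase genes Adamts9 and Adamts5 were higher (3.51 ± 0.072, adjusted p = 1.2e-08 for Adamts9, and 2.44 ± 0.056, adjusted p = 2.07e-08 for Adamts5), and the serpin genes Serpinf1 and Serpine2 were lower, Serpinf1 at 426.4 and 390 FPKM in WT and 42.72 and 42.19 in KO (-3.23 ± 0.073, adjusted p = 2e-08). Of 7 Notch pathway genes tested, 5 were higher and 2 lower (1 lower without WT library 2, KO library 1 or KO library 2, at equal total FPKM, with no filter on low values, and from the 4 untreated libraries alone): the ligand gene Jag1 was at 0.635 and 0.884 in WT and 7.292 and 6.699 in KO (2.19 ± 0.099, adjusted p = 7.3e-07). The target Hes1 was at 6.469 and 6.159 in WT and 17.76 and 19.52 in KO (1.42 ± 0.071, adjusted p = 1.27e-06). The receptor gene Notch1 was at 4.027 and 4.055 in WT and 1.102 and 1.147 in KO (-1.25 ± 0.096, adjusted p = 1.38e-05). In the hedgehog pathway the target Ptch1 was lower, at 11.14 and 11.37 in WT and 5.435 and 5.24 in KO (-0.95 ± 0.059, adjusted p = 4.29e-06), and the signal transducer gene Smo higher (1.42 ± 0.038, adjusted p = 4.61e-08).

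Programs of growth and basic metabolism differed little in size. Of 34 proliferation and replication genes, 58.8% were called, under the 71.0% of all genes, and Mcm2, of the replicative helicase, was the 1 member called at least 2-fold (1.06 ± 0.04, adjusted p = 2.73e-07). Mki67 was at 30.16 and 36.53 FPKM in WT and 40.15 and 37.07 in KO (adjusted p = 0.0749), and was called higher without WT library 2 (0.34, adjusted p = 0.00873) and at equal total FPKM (0.26, adjusted p = 0.0377). Of 80 cytosolic ribosomal protein genes 71.2% were called and of 53 nuclear respiratory chain genes 75.5%, and no member of either list reached 2-fold, against 18.0% of all genes. These shares of calls are near the background. Ribosomal protein genes have many near-identical pseudogenes, which makes their single values uncertain. Cell cycle inhibitors and D cyclins differed more, in both directions. Of 13 D cyclin, Cdk and Cdk inhibitor genes tested, 3 were higher and 8 lower (84.6% called). Cdkn1a was at 44.04 and 43.44 FPKM in WT and 5.429 and 5.571 in KO (-2.78 ± 0.09, adjusted p = 1.22e-07). Cdkn2a, highly expressed in cultured fibroblasts, was at 1044 and 961.5 in WT and 371.4 and 403.9 in KO (-1.37 ± 0.054, adjusted p = 3.64e-07). Ccnd1 was at 19.25 and 18.41 in WT and 3.765 and 3.781 in KO (-2.05 ± 0.067, adjusted p = 1.22e-07). Ccnd2 was at 3.509 and 3.933 in WT and 38.94 and 37.97 in KO (3.06 ± 0.063, adjusted p = 1.18e-08). Ccnd2 lies on chromosome 6, as does an inhibitor gene of this list that was also called higher in KO. Of 33 glutathione, antioxidant and xenobiotic genes, 22 were lower and 6 higher, with a median of -0.47: Nqo1, a quinone reductase, was at 87.52 and 89.43 in WT and 7.564 and 7.617 in KO (-3.38 ± 0.052, adjusted p = 2.99e-09). Gstt1 was at 77.13 and 79.62 in WT and 4.186 and 5.24 in KO (-3.80 ± 0.087, adjusted p = 2.04e-08).

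Among other stress and metabolic genes, Adm, which encodes the vasodilator adrenomedullin, differed most, at 28.53 and 26.18 FPKM in WT and 0.133 and 0.16 in KO (-4.63 ± 0.12, adjusted p = 4.11e-08). Of 25 hypoxia and glycolysis genes, Adm included, 12 were higher and 8 lower (80.0% called, against 71.0% of all genes tested). Of the hexokinase genes, Hk2 was higher (1.76 ± 0.071, adjusted p = 4e-07) and Hk1 lower (-1.57 ± 0.051, adjusted p = 1.21e-07). The inducible chaperone gene Hspa1b was at 41.67 and 37.47 FPKM in WT and 4.414 and 5.018 in KO (-2.83 ± 0.076, adjusted p = 4.65e-08); its neighbour Hspa1a is a near-identical copy (-1.76) and both values are uncertain. Of 20 genes of endoplasmic reticulum chaperones and the unfolded protein response, 14 were higher and 2 lower (1 lower without WT library 1 or KO library 1 or at equal total FPKM, and 4 after quantile normalization), with Hspa5, which encodes BiP, at 408.1 and 408.5 in WT and 521.6 and 512.7 in KO (0.34 ± 0.033, adjusted p = 5.35e-05). Sterol and fatty acid genes were called in 64.5% of 31 and at least 2-fold in 9.68%, both under the shares of all genes. The 2 desaturase genes Fads1 and Fads2 were the highest of these (1.42 ± 0.032, adjusted p = 1.99e-08 for Fads1, and 2.23 ± 0.042, adjusted p = 7.53e-09 for Fads2). Of 12 tested members of the ARID family, to which Arid5a belongs, 6 were higher and 3 lower. Of all genes tested, 36.4% were higher and 34.5% lower. The share of the family called was thus near the 71.0% of all genes tested. Arid5b was at 41.48 and 42.46 FPKM in WT and 26.56 and 26.11 in KO (-0.65 ± 0.058, adjusted p = 3.15e-05). The histone demethylase gene Kdm5b was at 1.977 and 2.535 in WT and 8.62 and 8.863 in KO (1.59 ± 0.1, adjusted p = 6.1e-06).

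**Figure D4:**
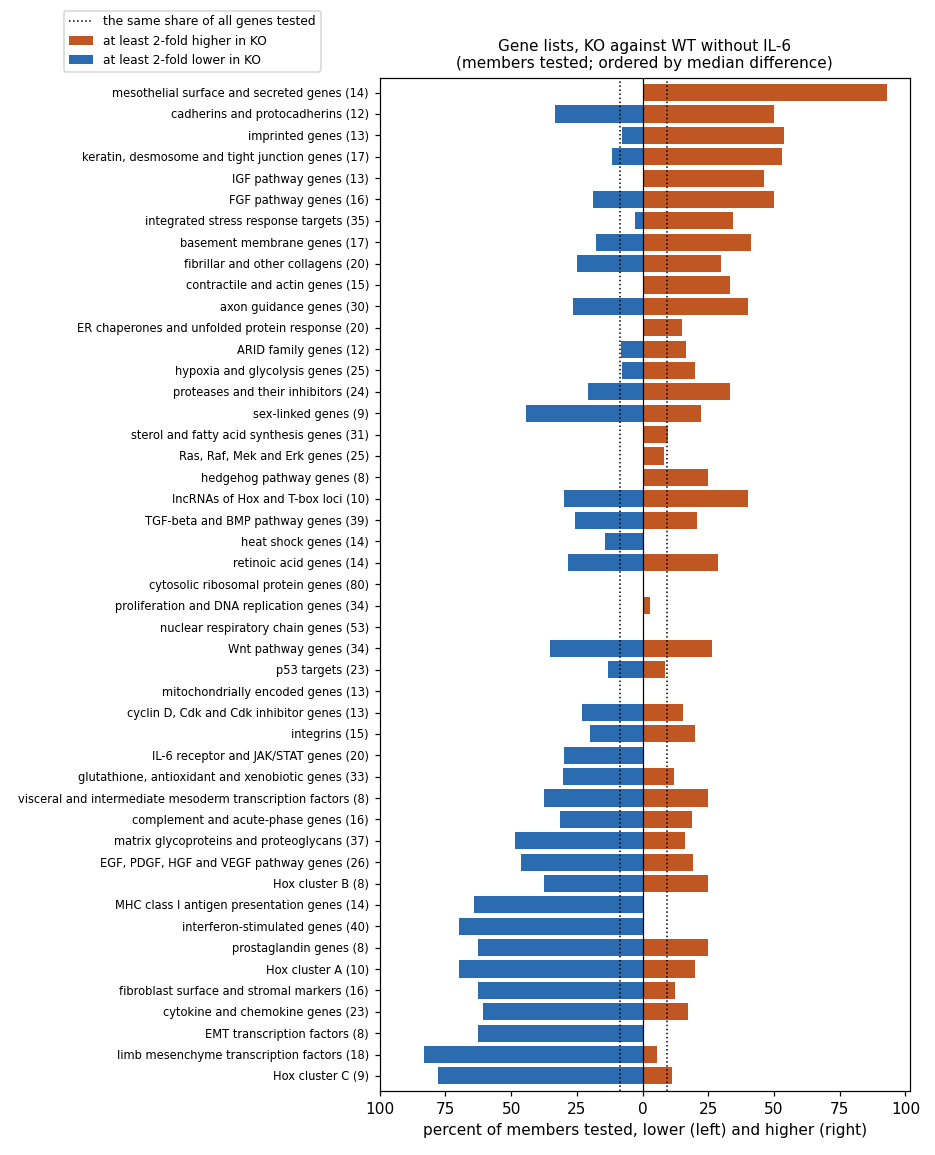
Share of the tested members of each list with at least 8 tested genes (number in brackets) that were called and at least 2-fold higher (right) or lower (left) in KO without IL-6, in percent. Dotted lines give the same share of all genes tested, 9.46 and 8.57%; lists are ordered by their median difference, from mesothelial surface genes at the top to Hox cluster C at the bottom.

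Some genes were on in one culture and off in the other, at 5 FPKM or more in both libraries of one and under 0.1 FPKM in both of the other. Of the genes tested, 80 were on in KO, 68 of them protein-coding, and 62 on in WT, 53 of them protein-coding. Trf, which encodes the iron carrier transferrin, was listed at 0 in WT and was at 1360 and 1377 FPKM in KO (10.42 ± 0.035, adjusted p = 5.21e-12), the largest difference of a protein-coding gene. Rhox5, an X-linked homeobox gene of the reproductive tract and placenta, was listed at 0 in WT and at 664.1 and 660 in KO (9.37 ± 0.046, adjusted p = 2.74e-11). Tspan8, a tetraspanin, was listed at 0 and stood at 131.5 and 127.4 (7.03 ± 0.048, adjusted p = 1.03e-10), and Stk26, a kinase, was at 89.96 and 89.14 FPKM in KO. Penk, which encodes proenkephalin, was at 251.8 and 253 FPKM in WT and 0.0846 and 0.0765 in KO (-7.87 ± 0.059, adjusted p = 1.63e-10). Lrrc17 was at 70.92 and 71.83 in WT and 0.0272 and 0.0738 in KO (-6.11 ± 0.062, adjusted p = 4.8e-10). Other large differences named by the rule were those of Atp1b1, a sodium pump subunit (5.2 and 3.907 in WT and 496.1 and 447.3 in KO, 6.42 ± 0.16, adjusted p = 2.82e-08), Tmem108 (6.79 ± 0.066, adjusted p = 4.39e-10), Enpp2, which makes lysophosphatidic acid (179.4 and 191.9 in WT and 0.357 and 0.362 in KO, -7.10 ± 0.057, adjusted p = 1.93e-10), Apod (-7.005 ± 0.16, adjusted p = 2.12e-08), Nsg1 (-6.86 ± 0.055, adjusted p = 1.93e-10) and Ifitm1 (-6.50 ± 0.17, adjusted p = 4.47e-08).

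Imprinted genes, expressed from 1 parental copy, included several of the genes that were off in WT. Of 13 tested, 10 were higher in KO and 2 lower, with a median of 1.06. Sgce and Peg10, neighbours on chromosome 6, were listed at 0 in both WT libraries and stood at 53.1 and 54.48 FPKM (Sgce) and 17.84 and 16.23 FPKM (Peg10) in KO (5.78 ± 0.054, adjusted p = 4.06e-10 for Sgce, and 4.17 ± 0.076, adjusted p = 6.52e-09 for Peg10). Peg3, on chromosome 7, was likewise listed at 0 in WT and at 14.07 and 13.31 in KO (3.88 ± 0.08, adjusted p = 1.18e-08). Mest was at 0.329 and 0.219 in WT and 3.49 and 3.392 in KO (1.80 ± 0.086, adjusted p = 9.91e-07). The growth-limiting lncRNA H19 was at 9.487 and 10.07 in WT and 40.51 and 36.33 in KO (1.87 ± 0.074, adjusted p = 3.62e-07). Plagl1 was lower (-1.14 ± 0.15, adjusted p = 0.000288). Off chromosome 6, 7 of 10 were higher and 2 lower, with a median of 0.70.

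Whole chromosomes also differed in their median. Over the 662 genes tested on chromosome 6 the median difference was 0.68, with 470 called higher and 76 lower, against a median of 0.0069 over all genes. Split by position into 3 parts of equal gene number, the chromosome had medians of 0.78, 0.66 and 0.63 from its start to its end. The split was chosen after the chromosome medians were seen. Chromosome 7 had a median of 0.33 over 956 genes and chromosome 1 of 0.22 over 756. Lower medians were found on chromosome 12 (-0.40 over 489 genes), chromosome 10 (-0.34 over 666) and chromosome 18 (-0.27 over 355). With IL-6 the medians were 0.68 on chromosome 6, 0.32 on chromosome 7, -0.36 on chromosome 12 and -0.32 on chromosome 10. Over the 456 genes of the X chromosome the median was -0.0062. Within 10 Mb of Arid5a, 70 genes were tested, of which 38 were higher and 13 lower (72.9% called), with a median of 0.21, close to that of chromosome 1.

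**Figure D5:**
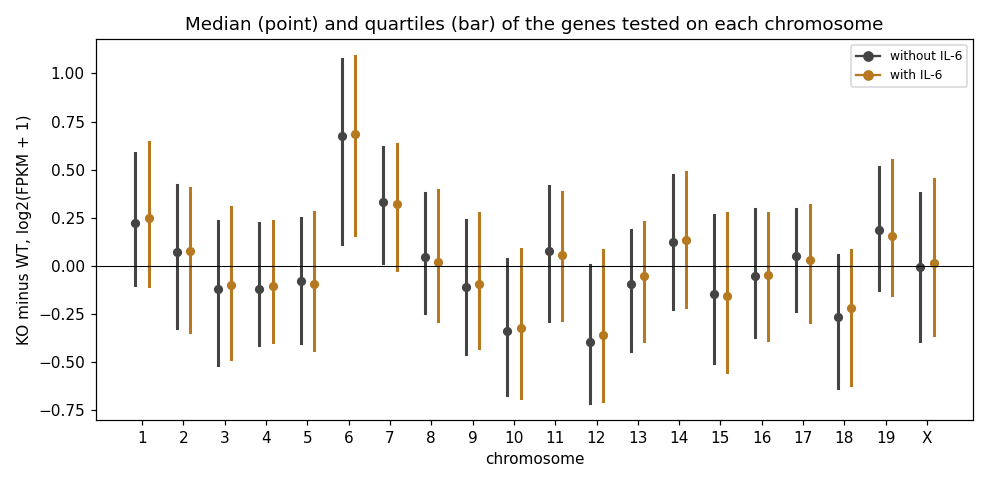
Difference between KO and WT of the genes tested on each chromosome (y axis, log2 of FPKM + 1), as the median (point) and the lower and upper quartile (bar), without IL-6 (grey) and with IL-6 (brown). Chromosome 6 stands highest at 0.68 in both conditions and chromosomes 12 and 10 lowest; the Y chromosome, with 8 genes tested, is not drawn.

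The identity differences were also present in the libraries treated with IL-6, which share no library with the comparison. The labels do not say whether these come from other embryos or clones. Any difference between the sources of the WT and KO cells could therefore recur in them. Pitx1 was at 43.75 and 47.02 FPKM in the treated WT libraries and listed at 0 in the treated KO libraries, and Hoxc10 was at 46.3 and 46.59 in WT and 0.0864 and 0.0985 in KO. Wt1 was again listed at 0 in WT and was at 106.4 and 114.4 FPKM in KO. The list medians with IL-6 were 5.15 for mesothelial factors, 4.04 for mesothelial surface genes, -2.82 for limb factors and -1.24 for interferon-stimulated genes. The genotype difference itself differed with IL-6 for 830 of 13693 genes (6.06%). Leaving out any 1 library reduced that count to between 383 and 523. Il6 was among them, at 5.61 and 4.587 FPKM in treated WT and 0.965 and 1.072 in treated KO, where it was called lower (-1.59). Acta2 was at 15.71 and 17.12 in treated WT and 315.3 and 328.8 in treated KO, a larger difference than without IL-6, and Dcn at 464.5 and 393.9 in treated WT and 814.9 and 806.5 in treated KO, a smaller one. No mesothelial or limb factor named above was among these genes.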

How the data were processed

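RNA of 8 mouse embryonic fibroblast samples was sequenced after poly(A) selection with a stranded TruSeq mRNA kit, per the labels' protocols. The authors deposited FPKM per transcript; HISAT2, Cufflinks 2.2.1 and GRCm38.p6 are named in the submitters' processing notes, and the strand setting of the counting is not given in the sources used here. Transcript FPKM were summed to genes by dropping the final hyphen and 3-digit number, with gene classes from GENCODE M21. Genes reaching 1 FPKM in 2 or more of the 8 libraries were tested on log2(FPKM + 1) with limma 3.58.1 (R 4.3.3) and an intensity trend. The fit held all 4 groups, leaving 4 degrees of freedom, with Benjamini-Hochberg adjustment over 13693 genes. FPKM carry no counts, so no count model was the main test; low values were near whole multiples of 1 fragment in 90.1 to 92.0% of cases, which gave the depths. Summed FPKM were 536816 to 584995 per library, and a fixed total makes each gene's level depend on the others.

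In trials on simulated data, changes of 0.25, 0.5, 1 and 2 on the log2 scale were called in 28, 70, 96 and 98% of 50 genes each, and 8 of 13493 unchanged genes were called. Far more genes differed in the real data, so these shares do not give the sensitivity of the comparison. Named genes were Arid5a, the 12 largest rises and falls among called protein-coding genes (higher group at 5 FPKM or more), the 4 largest each way among lncRNAs at 2 FPKM or more, up to 10 on/off genes each way, and members of the lists. The sex-linked Eif2s3y, an on/off gene, is covered by Ddx3y, and some genes that these rules take are not reported here. The members and lists were chosen with earlier results of these data known. Alternatives covered normalization, filter, pseudocount, variance trend, replicate block and left-out libraries. Of 1315 list symbols, 3 were not found. Promoters came from RefSeq (GRCm38.p6). Figures were drawn with matplotlib 3.10.9, and tables were handled with pandas 2.3.3 and numpy 2.4.6 under Python 3.11.15.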

Additional observations from a re-analysis of the deposited data

Results flagged for a closer look

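The difference between KO and WT was not the same with and without IL-6 for 51 of the genes named, by limma's test of the difference between the 2 genotype differences (adjusted p below 0.05 with Benjamini-Hochberg adjustment over all genes tested). Of these, 27 differed more in size without IL-6. The value given for each gene is the log2 difference with IL-6 minus that without it, so a negative value means a lower position of KO with IL-6. Slpi, which was higher in KO without IL-6 and lower with it, changed from 0.36 to -1.53, and Col1a2 from -0.01 to 0.51; these 2 had opposite signs. Il6 changed from -0.09 to -1.59. Cell identity, fibroblast and contractile genes with such a difference were Slpi, Acta2, Tagln and Dcn, at -1.89, 1.33, 1.05 and -1.33. Cspg4, Vim, Pdpn and Stmn2 stood at 0.43, 0.32, -0.30 and -0.67. Fabp4, Cd14, Cdh3 and Perp stood at -2.04, -0.56, 0.62 and 0.64. Matrix genes with such a difference were Aspn, Omd, Ogn and Nid2, at 1.03, 1.10, 0.57 and 0.67. Col4a5, Col3a1, Col1a2 and Fbln2 stood at 0.48, -0.52, 0.53 and -0.67. Signalling genes with such a difference were Gdf7, Grem1, Wnt10b and Axin2, at 1.91, -0.72, 0.41 and 0.65. Dusp6, Hgf, Igfbp4 and Ptges stood at -0.82, -0.95, -1.28 and -0.75. Immune and acute-phase genes with such a difference were Cxcl1, Ccl2, Cxcl12 and Il33, at -0.46, -0.45, -0.58 and -0.54. Il1rn, Il6, Il6st and Stat3 stood at -1.40, -1.50, -0.42 and -0.42. Nos2, Lcn2 and Saa3 stood at -1.16, -1.43 and -1.54. Stress, growth and other genes with such a difference were Adamts5, Apod, Asns and Atf4, at -0.68, 1.06, -0.46 and -0.28. Ccnd1, Ddit4, Gm48898 and Gstt1 stood at 1.04, -0.54, 1.81 and -0.97. Itgbl1, Lrrc17, Nsg1 and Serpinf1 stood at 1.03, 1.14, -0.80 and 0.55. With 2 libraries a group, no group could be searched for a library that stands apart.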

How the results depend on the processing

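The count of genes called between KO and WT without IL-6 was 9716, and it ranged from 7874 with a filter of 5 FPKM, which leaves fewer genes, to 11044 with no filter on low values. It was 9453 from the 4 untreated libraries alone, and 8823 to 8986 when 1 of them was left out, which leaves a lone library assumed to vary like the other groups. At a pseudocount of 5 the at least 2-fold counts fell to 666 higher and 586 lower without IL-6, and to 692 higher and 646 lower with it, since that scale shrinks the differences of low genes. The count of genes whose genotype difference differed with IL-6 was 830, and was 521 with no filter on low values and 383 to 523 when 1 library was left out. Of its calls 348 were higher and 482 lower, against 477 and 389 at equal total FPKM. With the replicate number as a block (replicate block) 9566 genes were called without IL-6, against 9716. Deviations of same-numbered libraries correlated at -0.097 to 0.055. These correlations cannot show whether same-numbered libraries share a culture or a preparation. For the genes named, the block removed the call of Hic1 (adjusted p = 0.06).

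Of 256 genes named, 6 of the called ones lost their call in at least 1 of 14 alternatives. The difference of B2m changed sign after quantile normalization, to 0.09 from -0.35; the cause was not tested. Of 1764 counts of list members across the alternatives, 49 moved by more than 1.5 times, 20 of them with the filter of 5 FPKM, which leaves fewer members tested, and 17 when 1 library was left out. These 17 counts are of 7 lists: Notch, hedgehog, IL-6 receptor and JAK/STAT, endoplasmic reticulum chaperone, p53, mitochondrially encoded, and head and neural crest genes. With 2 libraries a group, the precision for small differences is limited. On simulated data in which 13493 of 13693 genes were unchanged, differences of 0.25 on the log2 scale were recovered in 28% of 50 genes and those of 0.5 in 70%. The changed genes were drawn from those of higher level. In the real data 71.0% of genes were called, which makes the adjusted threshold less strict than in that trial. These shares therefore do not give the sensitivity of this comparison. Counts were not used here, so no counting interval is given.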

Other observations

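Other lists held single genes of interest. Of 23 p53 targets tested, 7 were higher in KO and 11 lower (78.3% called, against 71.0% of all genes tested), with a median of -0.15. The count of p53 targets called higher fell without KO library 1. Pmaip1, which encodes the death-promoting protein Noxa, was at 4.75 and 4.526 FPKM in WT and 23.74 and 21.96 in KO (2.08 ± 0.068, adjusted p = 1.25e-07), and Eda2r, a death-domain receptor gene, at 3.715 and 4.193 in WT and 0.486 and 0.566 in KO (-1.70 ± 0.088, adjusted p = 1.55e-06). Of 12 cartilage genes, 5 were tested: Sox9, the master factor of cartilage, was at 2.03 and 1.457 in WT and 0.659 and 0.841 in KO (-0.64 ± 0.13, adjusted p = 0.00248), Sox5 was higher (2.10 ± 0.18, adjusted p = 2.59e-05), and Comp and Col10a1 were lower (-1.09 ± 0.12, adjusted p = 9.34e-05 for Comp, and -1.90 ± 0.097, adjusted p = 1.4e-06 for Col10a1). Of 13 transcripts encoded by the mitochondrial genome, 6 were lower in KO and none was higher, with a median of -0.24. Without WT library 1, 2 were lower and 1 higher, and without KO library 2, 3 were lower and 1 higher. At equal total FPKM 3 were lower and 1 higher, with no filter on low values 2 were lower, with no intensity trend 3 were lower, and with the replicate block 4 were lower and 1 higher. The mitochondrial transcripts held 1.754 and 1.952% of total FPKM in WT and 1.303 and 1.54% in KO.

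Among the on/off genes was Gm23217, a short gene listed at 0 in both KO libraries and at 285.1 and 66.31 FPKM in WT (-7.12 ± 1.7, adjusted p = 0.00616). The values of its WT libraries lie far apart, and both are given as deposited.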
